A study of Mus musculus with 33 samples.

Results

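Morphine was compared with saline in the nucleus accumbens of germ-free mice. These are the 11 libraries whose labels read GF_Morphine (5 libraries) or GF_Saline (6 libraries), of 33 in the series. Germ-free mice carry no microbes at all. They were C57BL/6J animals, bred in the institution's own germ-free facility, kept in flexible vinyl isolators for the whole experiment and given sterilised chow and water. Their age was matched to conventionally raised mice of 7 to 9 weeks. Controls received saline. The treated mice were injected with morphine sulphate in saline at 20 mg/kg per day for 7 days, a treatment the series title calls chronic. The other 22 libraries are of conventionally raised mice that drank water (H2O) or a mixture of vancomycin, bacitracin, pimaricin and neomycin (Abx), with the same pair of treatments, and are used only to test whether the germ-free response differed. The libraries hold polyadenylated RNA of bulk tissue. The labels say only that each library is a separate sample, and they give no sex, cage, isolator or sequencing batch, so p-values measure the spread between these samples. A difference between isolators and a difference between treatments cannot be told apart where they coincide.

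The nucleus accumbens is the ventral part of the striatum and a centre of drug reward. Most of its neurons are GABAergic medium spiny neurons, which carry either the D1 or the D2 dopamine receptor, and which make the opioid peptides dynorphin and enkephalin respectively. Morphine acts mainly on the mu opioid receptor, a receptor that lowers cyclic AMP through inhibitory G proteins. Long exposure to opioids is known for compensating changes in cyclic AMP signalling and, in the whole animal, for activating the adrenal stress hormone axis.

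Reads counted to genes ranged from 4.87 to 15.3 megareads in the 6 saline libraries and from 5.86 to 7.30 megareads in the 5 morphine libraries. Saline replicate 1 held the most, and every other germ-free library held 8.13 megareads or fewer. Levels are given as CPM, the usual unit of counts scaled to library size, after TMM scaling between libraries. Striatal markers were present in all 11 libraries. Ppp1r1b, which encodes the dopamine-regulated phosphatase inhibitor DARPP-32, ranged from 490 to 1305 CPM, and all 25 medium spiny neuron markers passed the count filter. The mean log2 CPM of those 25 markers ran from 6.02 to 7.52 in saline and from 6.72 to 7.36 in morphine libraries. The saline group therefore held both the lowest library (replicate 5) and the highest (replicate 1).

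Genes of neighbouring tissue were uneven between libraries. Slc17a7, the vesicular glutamate transporter of cortical-type neurons, read 304, 2.42, 5.08, 65.3, 6.01 and 4.63 CPM in saline replicates 1 to 6, and 3.07 to 4.46 CPM in the morphine libraries. Saline replicates 1 and 4 were high and the other 9 libraries read 6.01 or less. Of 18 cortical glutamatergic markers, 11 passed the count filter, none was at 0 in all libraries, and their mean log2 CPM was 5.19 to 6.26 in saline and 5.04 to 5.42 in morphine libraries. The pituitary growth hormone gene Gh read 54.9 CPM in saline replicate 4, 33.4 in morphine replicate 2 and 0 in saline replicate 1. Oxt, the hypothalamic oxytocin gene, read 27.4 CPM in saline replicate 5 and at most 1.85 in the other 10 libraries. In that library Avp (vasopressin) read 7.21 CPM, Ttr (transthyretin, abundant in the choroid plexus) 2.00 and Pnoc (the nociceptin precursor) 22.4, each the highest of its group. Col3a1, a fibrillar collagen of meninges and vessel walls, read 79.4 CPM in morphine replicate 3 and 2.02 to 11.2 in the rest. Prl, the prolactin gene, was highest in saline replicate 4 at 9.90 CPM. The 6 adult globin genes, Hbb-bs and Hbb-b1 among them, and also Rpl26 and Ndufs5, had no read in any germ-free library, so blood could not be read from globin. In bulk tissue, fewer cells of a type and less RNA per cell cannot be told apart.

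**Figure D1:**
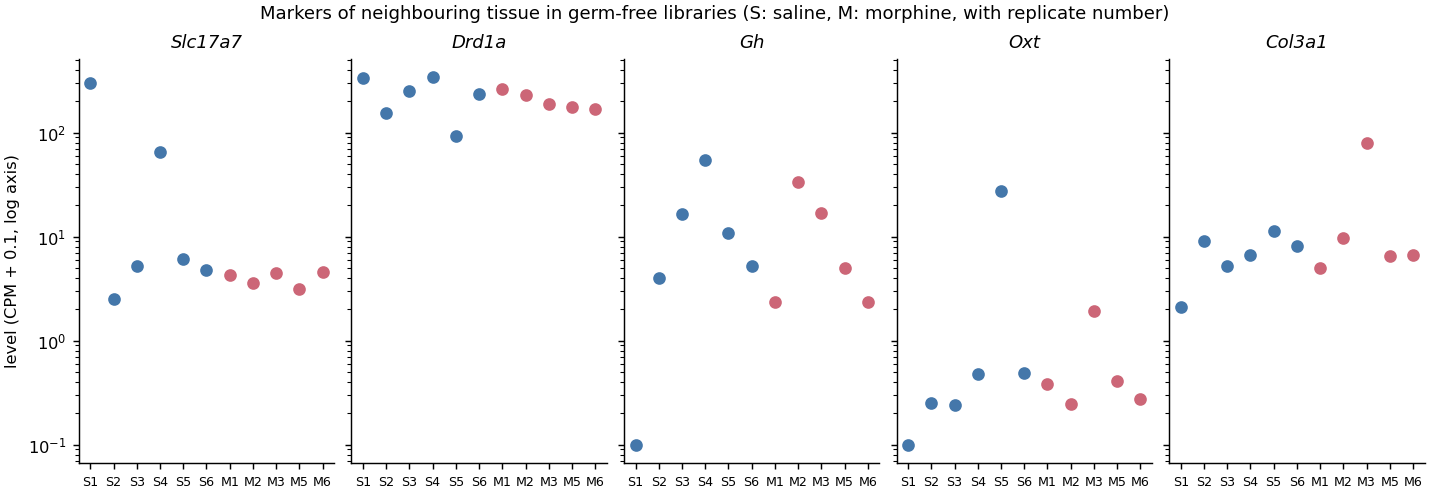
Levels (CPM + 0.1, log axis) of a cortical (Slc17a7), a striatal (Drd1a), a pituitary (Gh), a hypothalamic (Oxt) and a matrix (Col3a1) gene in each germ-free library. Slc17a7 stands high in saline replicates 1 and 4 (304 and 65.3 CPM), Oxt in saline replicate 5 and Col3a1 in morphine replicate 3, while Drd1a stays between 92.1 and 340 CPM.

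No gene passed the test between morphine and saline in germ-free mice. Of 13570 genes tested with edgeR's quasi-likelihood method, 0 had a Benjamini-Hochberg adjusted p under 0.05 (0%), and the smallest adjusted p was 0.9996. DESeq2 and limma's voom also called 0. At an unadjusted p under 0.05 there were 332 genes with edgeR, 318 with DESeq2 and 647 with voom. The 332 were 160 higher (1.18% of those tested) and 172 lower (1.27%) under morphine, 2.45% in all. Where nothing differs, that threshold passes a share of about 0.05, so the 332 are not an excess. Of all 13570 genes, 6258 had a log2 fold change above 0 and 7312 one below 0. The median size of a log2 fold change was 0.08, and 17 genes exceeded 1 in size. The 95% intervals reached 0.28 to either side of the estimate at the median gene, and less than 1 for 99.3% of genes. These intervals are per gene and not adjusted for the number of genes tested. They therefore do not give the size of change that the adjusted test would detect with 11 libraries. Cenpf, at -1.11 with an interval of -1.78 to -0.44, had an edgeR adjusted p of 0.9996. The median size of change was smaller than the median reach of the intervals. When the spread was estimated from all 33 libraries, 1 gene was called, Flt3l (0.92, adjusted p 0.0156). Leaving out any single library gave 0 calls.

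Groups without overlap were few. In 18 genes (0.133%) every morphine library stood above every saline library, and in 19 genes (0.14%) every one stood below. The genes described next are the 12 higher and 12 lower ones with the smallest unadjusted p, and none of them passed the adjusted threshold. They are described as values. A small p and a lack of overlap go together, so the lack of overlap in genes picked by p is not separate support.

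Flt3l, the ligand of the receptor FLT3 that promotes dendritic cell and progenitor growth, had the smallest p. It read 2.15 to 3.60 CPM (median 3.15) in saline and 7.02, 4.98, 4.69, 5.21 and 5.83 in morphine libraries. All 5 morphine libraries were above all 6 saline ones, and the log2 fold change was 0.92 ± 0.19 (SE; 95% interval 0.52 to 1.32). Micall2, which encodes a cytoskeletal adaptor of cell junctions, read 1.16 to 1.83 CPM (median 1.67) in saline and 2.27 to 3.60 in morphine libraries, a log2 fold change of 0.86 ± 0.20. Slirp, whose product stabilises mitochondrial messenger RNA, read 7.21 to 9.17 CPM (median 7.47) and 9.61 to 12.9 (0.49 ± 0.12). Neither gene overlapped between groups. Mfsd10, Plekho2, Slc25a34, Dph7, Zfp784 and Acd, which encodes the telomere protein TPP1, also did not overlap, at 0.27 to 0.47. Cd248, a surface protein of pericytes and fibroblasts also called endosialin, read 1.51 to 2.80 CPM in saline and 2.49, 2.91, 3.26, 3.69 and 4.07 in morphine libraries (0.71 ± 0.21), and 4 of the 5 stood above every saline library. Il18, a cytokine gene, was at 0.31 ± 0.09 and the glutamine transporter gene Slc38a5 at 0.95 ± 0.30, each with 4 of 5 above. Among the 12 higher genes, 9 did not overlap.

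Among the 12 lower genes, 8 did not overlap. Rin2, an exchange factor for the endosomal GTPase RAB5, read 43.0 to 47.7 CPM (median 45.9) in saline and 34.2, 38.1, 37.8, 36.6 and 38.1 in morphine libraries, a log2 fold change of -0.30 ± 0.07 (95% interval -0.45 to -0.15). Its replicates were tight in both groups, at 45.6 ± 1.88 and 37.0 ± 1.63 CPM (SD). Ednra, the endothelin A receptor of vascular smooth muscle, read 3.17 to 4.89 CPM (median 4.17) against 2.30 to 2.74 (-0.71 ± 0.17). Pdk4, the kinase that inhibits pyruvate dehydrogenase, read 22.0 to 27.8 CPM (median 23.7) in saline and 16.1, 16.4, 20.0, 15.2 and 21.3 in morphine libraries (-0.45 ± 0.11). Gpt2, mitochondrial alanine aminotransferase, read 94.8 to 109 CPM against 74.7 to 89.2 (-0.28 ± 0.07). Tbc1d4, a RAB GTPase-activating protein that restrains glucose transporter traffic, was at -0.38 ± 0.10. Hmgcs1, the cytosolic HMG-CoA synthase of sterol synthesis, read 160.2 to 187 CPM against 133 to 159.98 (-0.25 ± 0.07). Msantd3 and Ell2, a transcription elongation factor, were the other pair without overlap, at -0.42 and -0.36. Zbtb16, a zinc finger repressor induced by glucocorticoids, read 28.0 to 57.9 CPM in saline and 24.8, 23.1, 29.6, 14.1 and 29.0 in morphine libraries (-0.71 ± 0.20), and 2 of the 5 overlapped. Homer2, a postsynaptic scaffold, was at -0.47 ± 0.14, Spire1, an actin nucleator, at -0.41 ± 0.12, and Cenpf, a kinetochore protein of dividing cells, at -1.11 ± 0.31, the last from 2.70 to 1.26 CPM at the mean.

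**Figure D2:**
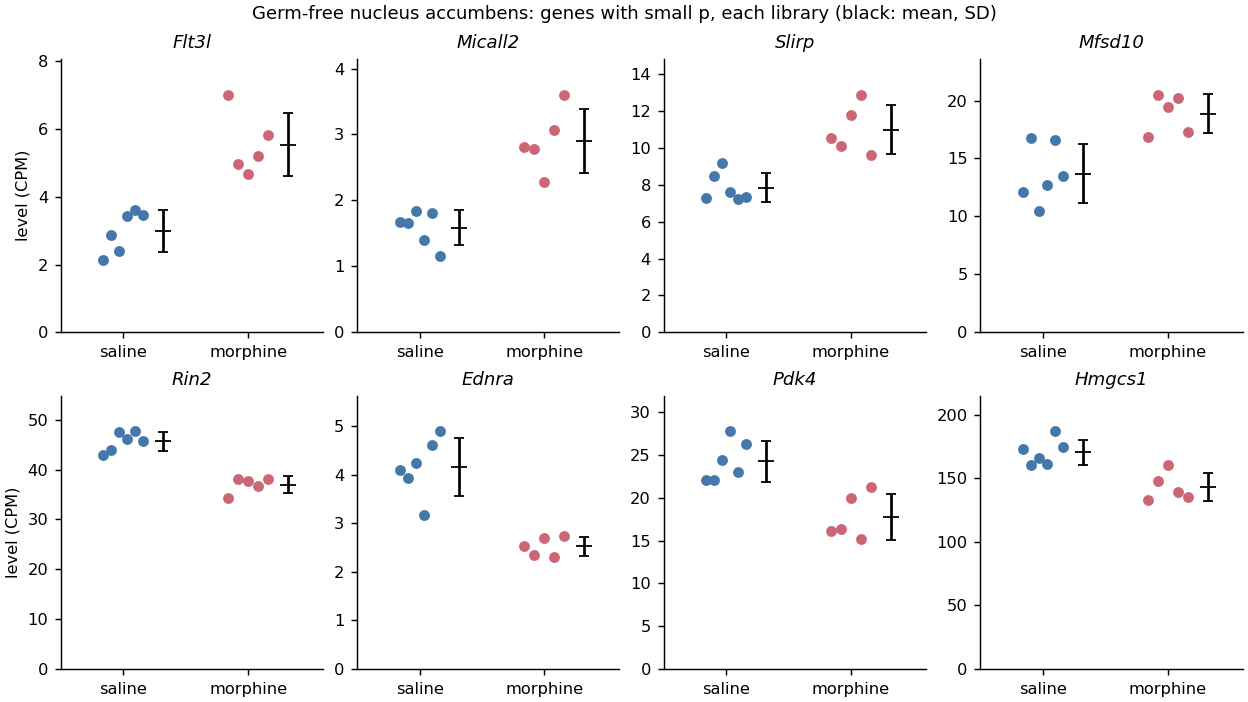
Level (CPM) of 8 of the genes with small unadjusted p in each germ-free library, with the mean and SD of each group in black. In these 8 genes no morphine library overlaps a saline library (for Flt3l, 4.69 and above against 3.60 and below), and none passed the adjusted threshold. They were picked from the genes with the smallest p, so the lack of overlap follows in part from that choice.

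The opioid system showed no gene past either threshold. None of its 21 tested genes reached an unadjusted p under 0.05 in either direction, and their median log2 fold change was -0.04, beside -0.01 over all genes. Oprm1, the mu receptor on which morphine acts, read 4.98 to 11.1 CPM (median 7.65) in saline and 9.12, 8.93, 6.25, 2.91 and 10.5 in morphine libraries, a log2 fold change of -0.07 ± 0.28. The groups overlapped, and the 95% interval ran from -0.67 to 0.53. Morphine replicate 5 was the lowest of all 11 for Oprm1. It was also the lowest for Oprd1, the delta receptor, at 3.37 CPM, where saline libraries read 14.0 to 36.7 and the other 4 morphine libraries 13.1 to 25.3 (-0.60 ± 0.37). Oprk1, the kappa receptor, was at -0.32 ± 0.24, and Oprl1, the nociceptin receptor, at 0.10 ± 0.17. Among the peptide precursors, Penk (enkephalin) read 769 to 1617 CPM in saline and 1100 to 1613 in morphine libraries (0.12 ± 0.17). Pdyn (dynorphin) read 164 to 435 against 270 to 496 CPM (0.15 ± 0.22), the highest being morphine replicate 1, and Pnoc was at -0.04 ± 0.49. Rgs4, a brake on inhibitory G protein signalling, had the smallest p of this list at -0.43 ± 0.22, with 222 to 569 CPM in saline and 259 to 361 in morphine libraries.

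The signs of several of these genes depend on which libraries enter. Without saline replicate 1 and morphine replicate 5, Oprm1 stood at 0.20, Oprl1 at -0.06 and Drd2 at 0.06. Drd1a, the D1 receptor, read 92.1 to 340 CPM (median 244) in saline and 169.5 to 262 in morphine libraries, a log2 fold change of -0.20 ± 0.27, and Drd2 was at -0.25 ± 0.30 with 54.1 to 216 against 79.3 to 150.2 CPM. Both spreads followed saline replicates 1 and 4 at the top and 5 at the bottom, and Ppp1r1b, at 0.01 ± 0.22, was highest in replicates 1 and 4 and lowest in 5 as well.

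**Figure D3:**
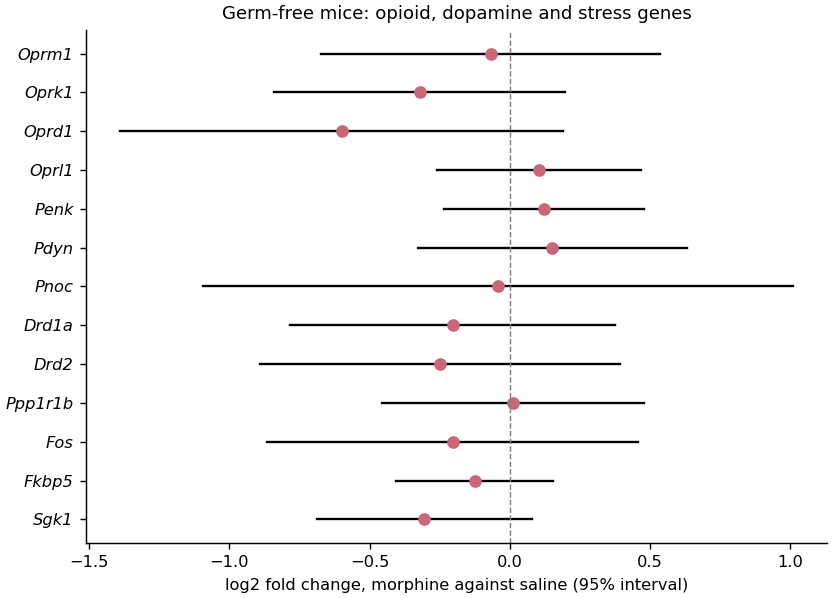
Log2 fold change of morphine against saline, with its 95% interval (lines), for opioid receptors and peptides, dopamine markers, Fos and stress genes. All 13 intervals include 0, and that of Pnoc is the widest (-1.09 to 1.01).

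Genes of cyclic AMP, dopamine and synaptic signalling gave few small p-values. Of 29 cyclic AMP genes none was under an unadjusted 0.05, with a median of -0.05 and 23 below 0, beside 7312 of all 13570 genes. Crem, a cyclic AMP-responsive transcription factor, came nearest at -0.30 ± 0.14. Of 19 dopamine genes 2 were lower at that threshold, beside 172 (1.27%) of all genes. Maob, a monoamine oxidase, read 29.6 to 36.8 CPM in saline and 26.0 to 31.1 in morphine libraries (-0.21 ± 0.09). The other, Nr4a2, had 39.8 CPM in saline replicate 1 and 1.46 to 4.82 in the other 10 libraries, and its median was higher in the morphine group (3.95) than in saline (3.16). Glutamate receptors and scaffolds gave 2 of 39 lower, Homer2 and the AMPA receptor partner Cacng2 (-0.26 ± 0.09). The 23 GABA genes, 33 potassium channels and 11 serotonin receptors gave none, with medians of -0.03, -0.11 and 0.01. Their smallest p-values belonged to Gabra4 (-0.29 ± 0.26), Kcna2 (-0.23 ± 0.11) and Htr1b (-0.38 ± 0.26).

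Immediate early genes, which neurons switch on within minutes of firing, had a median of -0.19 over 35 genes, with 3 lower and 0 higher at unadjusted p under 0.05. Of all 13570 genes, 172 (1.27%) were lower and 160 (1.18%) higher at that threshold. Fos read 16.9 to 43.3 CPM (median 27.1) in saline and 29.6, 8.35, 37.4, 27.0 and 27.1 in morphine libraries (-0.20 ± 0.31), with 1 low library, morphine replicate 2. Bdnf, a neurotrophin, read 7.80 CPM in saline replicate 1, at most 3.004 in the other saline and 0.56 to 2.27 in the morphine libraries (-1.34 ± 0.54). The 3 genes at that threshold, Bdnf, Dusp5 and Nr4a2, were each highest in saline replicate 1. Without that library and saline replicate 4, both high in Slc17a7, the list median was 0.10 and 0 genes were under 0.05. Both were also the highest germ-free libraries in the immediate early list itself (mean log2 CPM 5.08 and 4.88). Leaving them out therefore lifts the median whatever the reason for their level. The part of cortical tissue in the result was not tested.

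Glucocorticoid-induced genes were lower more often than higher, without any adjusted call. Of 31 tested, 25 had a log2 fold change below 0, 5 were lower and 0 higher at unadjusted p under 0.05, and the median was -0.15. Over all 13570 genes, 7312 were below 0 and 172 (1.27%) were lower at that threshold. Besides Pdk4 and Zbtb16 these were Nfkbia, the inhibitor of NF-kB (-0.26 ± 0.11), Arl4d, a small GTPase (-0.55 ± 0.18), and Ctgf, a matricellular growth factor (-1.11 ± 0.49). Ctgf read 40.7 CPM in saline replicate 1 and 4.35 to 11.9 in the other 10 libraries. The common markers of the pathway overlapped between groups. Fkbp5, the glucocorticoid receptor co-chaperone, read 60.2 to 100.3 CPM in saline and 58.4 to 83.6 in morphine libraries (-0.12 ± 0.13). Sgk1, a steroid-induced kinase, read 170.0 to 258 CPM in saline and 90.9, 162, 183, 193 and 188 in morphine libraries (-0.31 ± 0.18). Morphine replicate 1 was the low library, and without it Sgk1 stood at -0.15. The list median ran from -0.21 to -0.06 over all settings tried, and its count of lower genes from 3 to 9.

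Sterol synthesis and uptake gave 4 lower and 1 higher of 25 at unadjusted p under 0.05, beside 1.27% lower and 1.18% higher of all genes, with a median of -0.11. Lower ones were Hmgcs1, Hsd17b7 (a sterol reductase, -0.33 ± 0.10) and Stard4 (a sterol carrier, -0.33 ± 0.15). The higher one was Tm7sf2, a sterol reductase (0.35 ± 0.13). The count fell to 2 lower and 0 higher without saline replicate 1 and morphine replicate 5. Of 26 endoplasmic reticulum chaperones 2 were lower, Sdf2l1 (-0.41 ± 0.15) and Dnajc3 (-0.21 ± 0.08), and 23 of the 26 were below 0, beside 7312 of 13570 genes. The 22 cytosolic heat shock genes gave none (median -0.09). Hspa1b, an inducible HSP70, was high in saline replicates 3 and 5 at 21.0 and 22.6 CPM and read 4.38 to 8.52 in the others.

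Ribosomal and respiratory chain genes had medians on the other side of 0, without any call. All 62 cytosolic ribosomal protein genes had positive log2 fold changes with a median of 0.10, none under an unadjusted 0.05, and Rpl3 came nearest at 0.14 ± 0.07. Of all 13570 genes, 6258 were positive. In the fit of all 33 libraries 12 ribosomal genes were higher at an unadjusted p under 0.05, and after the correction for length and GC content 55 of the 62 were positive. Nuclear genes of oxidative phosphorylation had a median of 0.06 with 65 of 70 positive, and Atp5k had the smallest p (0.14 ± 0.07). The ribosomal median stayed positive in every setting, at 0.04 to 0.13, and was 0.04 after correction for gene length and GC content. Over all genes, log2 fold changes correlated with transcript length (rho -0.37) and GC content (rho 0.24), across genes that are not independent replicates. Ribosomal level was highest in morphine replicate 5 (mean log2 CPM 7.81), the library with the largest share of reads tallied outside genes, 35.4% against 19.3% to 30.1% in the other 10. Its part in the result was not tested beyond leaving that library out, which gave a median of 0.04.

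**Figure D4:**
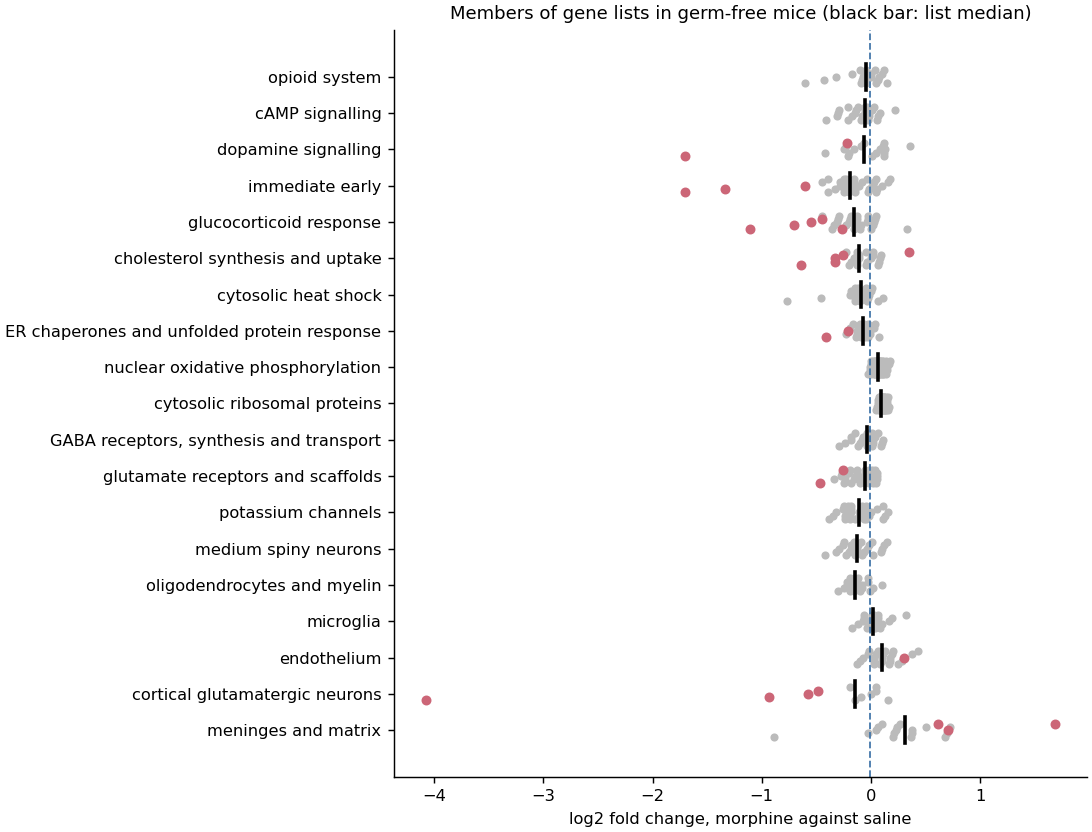
Log2 fold change of every tested member of 19 gene lists (points; pink where the unadjusted p is under 0.05), with each list's median as a black bar and the median of all genes (-0.01) as a dashed line. Matrix genes have the highest of these medians (0.32) and immediate early genes the lowest (-0.19).

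Among cell type markers, matrix and meningeal genes stood highest, with a median of 0.32 over 20 genes, 18 of them positive, and 3 higher and 0 lower at unadjusted p under 0.05. Of all 13570 genes, 6258 were positive and 160 (1.18%) were higher at that threshold. The 3 were Cd248, Bgn (biglycan, 0.62 ± 0.23) and Col3a1 (1.69 ± 0.70). Morphine replicate 3 held the highest level of this list, a mean log2 CPM of 4.40 against 3.18 to 3.48 in the other 10 libraries. For Col3a1 the other morphine libraries (4.91 to 9.66 CPM) lay within the saline range. Without that library the list median was 0.04 and 1 gene was under 0.05. Mural cell and endothelial markers gave 1 higher each, Pdgfrb (0.23 ± 0.09) and Ly6a (0.30 ± 0.12), with medians of 0.14 and 0.10.

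Microglial markers gave none of 25 and a median of 0.02, and the nearest was Olfml3 at 0.19 ± 0.10. Astrocyte, myelin and precursor lists gave medians of -0.03, -0.14 and -0.03, with Slc4a4 (-0.17 ± 0.08), Hapln2 (-0.30 ± 0.25) and Gpr17, a receptor of maturing oligodendrocytes (-0.29 ± 0.12), as the members with the smallest p. The medium spiny neuron list gave none of 25 and a median of -0.13, which became 0.19 without saline replicates 1 and 4. Those replicates were the highest germ-free libraries in that list (mean log2 CPM 7.52 and 7.51), so the rise follows at least in part from leaving them out. Ebf1 was the smallest-p member of the list at -0.32 ± 0.15. Of the interneuron genes, Cck was at -1.19 ± 0.51, with 39.0 CPM in saline replicate 1 and 3.60 to 11.2 in the others.

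Cortical markers gave 4 of 11 lower (Slc17a7 at -4.08 ± 1.24, Tbr1, Nrgn and Nptx1), beside 1.27% of all genes, with a median of -0.14. Each of the 4 was highest in saline replicate 1. Without saline replicates 1 and 4 the count was 0. Those replicates were the highest germ-free libraries in this list (mean log2 CPM 6.26 and 5.86), so the drop follows at least in part from leaving them out. Pgr, the progesterone receptor of the hypothalamic list, was at -0.30 ± 0.11, and Alas2, an erythroid haem enzyme, at 0.53 ± 0.23 with 4 of 5 morphine libraries above saline. The remaining lists gave no member under 0.05 apart from Bdnf again among neurotrophins. Their smallest-p members were Ciart for the clock (0.23 ± 0.11), Hdac3 for histone modifiers (0.18 ± 0.10), Cirbp for cold-inducible proteins (0.15 ± 0.12), Nqo1 for the aryl hydrocarbon receptor (-0.33 ± 0.17), Prdm16 for septum (-0.25 ± 0.15), Prox1 for thalamus (-0.36 ± 0.22), Ccdc153 for ependyma (-0.91 ± 0.72), Igfbp2 for choroid plexus (0.23 ± 0.16) and Chga for pituitary (0.15 ± 0.12). Ifit3, an interferon-induced gene, was at 0.48 ± 0.25, with 27.4 CPM in morphine replicate 5 and 7.93 to 12.98 in the other 10 libraries, and at 0.12 without that library.

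The germ-free response was then compared with that of the other mice, in a fit of all 33 libraries. Against water-drinking mice, 0 of 14602 genes differed (0%; 2327 at unadjusted p under 0.05; smallest edgeR adjusted p 0.0665). DESeq2 called 234 and voom 42, so this count rests on the tool. The 5 genes with the smallest p were Lnpep, a membrane aminopeptidase (germ-free minus H2O, -1.22), Smg9 (0.45), Hspa1l (0.66), Nabp2 (0.37) and Cers6, a ceramide synthase (-0.82). Lnpep was at -0.45 ± 0.17 in germ-free and 0.77 ± 0.17 in water mice. In germ-free morphine replicate 5 it read 17.8 CPM, against 39.0 to 45.4 in the other germ-free morphine libraries. Cers6 read 18.0 CPM in that replicate, against 33.3 to 39.8. Leaving out 1 library, the difference ran from -1.30 to -1.04 for Lnpep and from -0.90 to -0.66 for Cers6. Oprm1, outside those 5 genes, was at -0.07 ± 0.26 in germ-free and 1.05 ± 0.26 in water mice. The difference was -1.12 ± 0.37 with an edgeR adjusted p of 0.148. Its means under morphine were close, at 7.53 CPM in germ-free and 7.63 in water mice. The germ-free mean includes morphine replicate 5 at 2.97 CPM, against 6.24 to 10.4 for Oprm1 in the other germ-free morphine libraries. Its saline means were 7.78 and 3.66 CPM. Every germ-free saline library read 4.96 CPM or more and every water saline library 4.75 or less. The difference in response therefore went with a difference in saline level, whose cause was not tested.

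Against antibiotics-treated mice the response differed in 313 genes, 182 more positive in germ-free mice (1.25%) and 131 more negative (0.897%). Earlier results of these data had shown that the spread between libraries differs between the groups. The fit of all 33 libraries gives all groups the same estimate of it. In this fit, morphine against saline called 784 genes in Abx, 1 in germ-free and 0 in water mice. Of the 313, 239 were also called in the Abx arm and 1 in the germ-free arm. The Abx change was the larger in 269 and the germ-free change in 44, with median sizes of 0.35 and 0.16. In a fit of only these 4 groups, 43 genes were called, 42 of them among the 313, and without Abx morphine replicate 1 there were 75. Glucocorticoid-induced genes gave 7 more negative and 0 more positive of 31. In the germ-free arm Fkbp5 was at -0.13 ± 0.12 while in Abx mice it rose by 0.72 ± 0.12, a difference of -0.84 ± 0.17 (edgeR adjusted p 0.00859). Cdkn1a, a cell cycle inhibitor, was at -0.15 ± 0.14 and rose by 0.90 ± 0.13 in Abx mice (difference -1.05). Hif3a and Plin4, a lipid droplet protein, rose by 1.22 and 1.70 in Abx mice and were at -0.19 and -0.28 in germ-free mice. Saline levels of both were higher in germ-free than in Abx mice at the mean. Hif3a averaged 12.5 against 9.69 CPM and Plin4 21.7 against 17.2, with Plin4 from 5.00 to 40.4 in Abx saline libraries. Zbtb16 differed by -1.54. It averaged 39.5 and 24.1 CPM in saline and morphine germ-free mice and 15.6 and 28.0 CPM in the Abx groups. Its rise in Abx mice was not called (edgeR adjusted p 0.0764). Among the called genes the difference was largest for Wnt10b, which encodes a WNT ligand, at -2.94 ± 0.43. It averaged 1.07 and 0.72 CPM in saline and morphine germ-free mice and 1.12 and 5.65 CPM in the Abx groups.

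Microglial markers gave 3 more positive and 0 more negative of 25, beside 1.25% and 0.897% of all genes. Olfml3 fell by 0.91 in Abx mice and was at 0.19 ± 0.13 in germ-free mice (difference 1.10 ± 0.18). Fcrls fell by 0.85 in Abx mice and was at 0.02 in germ-free mice. Aif1 fell by 0.61 in Abx mice and was at 0.33 in germ-free mice. Fabp7, a fatty acid carrier of astrocytes and their precursors, fell by 1.02 in Abx mice and was at -0.09 ± 0.12 in germ-free mice (difference 0.92). Of the matrix list, Cd248 (1.54 ± 0.24) and Bgn (0.95) were more positive. Bgn read 34.6 CPM in morphine replicate 3 of the germ-free mice and 11.6 to 18.1 in the other 4, and without that library its difference was 0.62 with an edgeR adjusted p of 0.0584. It was called in 20 of 31 alternative fits. Pcolce2, outside that list, helps process collagen and was more negative (-1.46). Slc38a5 (1.42), Tuba1c (1.35), Micall2 (1.31), the ammonium transporter Rhcg (1.31) and the adenylate cyclase Adcy4 (1.25) completed the 6 most positive, and Klc3, a kinesin light chain, stood at -1.45. Smaller differences were those of Psmb8 (1.08) of the interferon list, Ly6a (0.55), Pltp (0.51) and the lipid transporter Mfsd2a (-0.55) of the vessel lists, and the sterol enzymes Lss (-0.58) and Hsd17b7 (-0.56). Lss read 12.8 CPM in germ-free morphine replicate 5 and 21.7 to 24.3 in the other germ-free morphine libraries. The chaperones Calr (0.34) and Pdia6 (0.31), Caly (0.35), Atp5d (0.33), Atp5k (0.29), Rps29 (0.38) and Rpsa (0.35) differed by less than 0.4.

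Of these 32 named genes, 9 were called in every alternative fit that gave an adjusted p: Cd248, Cdkn1a, Fabp7, Fcrls, Fkbp5, Mfsd2a, Olfml3, Pcolce2 and Wnt10b (DESeq2 gave Wnt10b none). In the fit of only 4 groups 10 were called. Germ-free and conventional mice also differed in source, housing and depth, with 9.36 to 15.3 megareads in the conventional libraries, and these cannot be told apart from the absence of microbes. Genes of neighbouring tissue differed too. Slc17a7 read 73.8 to 1248 CPM in the Abx libraries, all above the 9 germ-free libraries at 6.01 or less, and Gh at most 1.08 CPM in the Abx libraries against 2.22 or more in 10 of the 11 germ-free ones. With the levels of the cortical and hypothalamic lists as covariates, 770 genes differed between the germ-free and Abx responses.

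**Figure D5:**
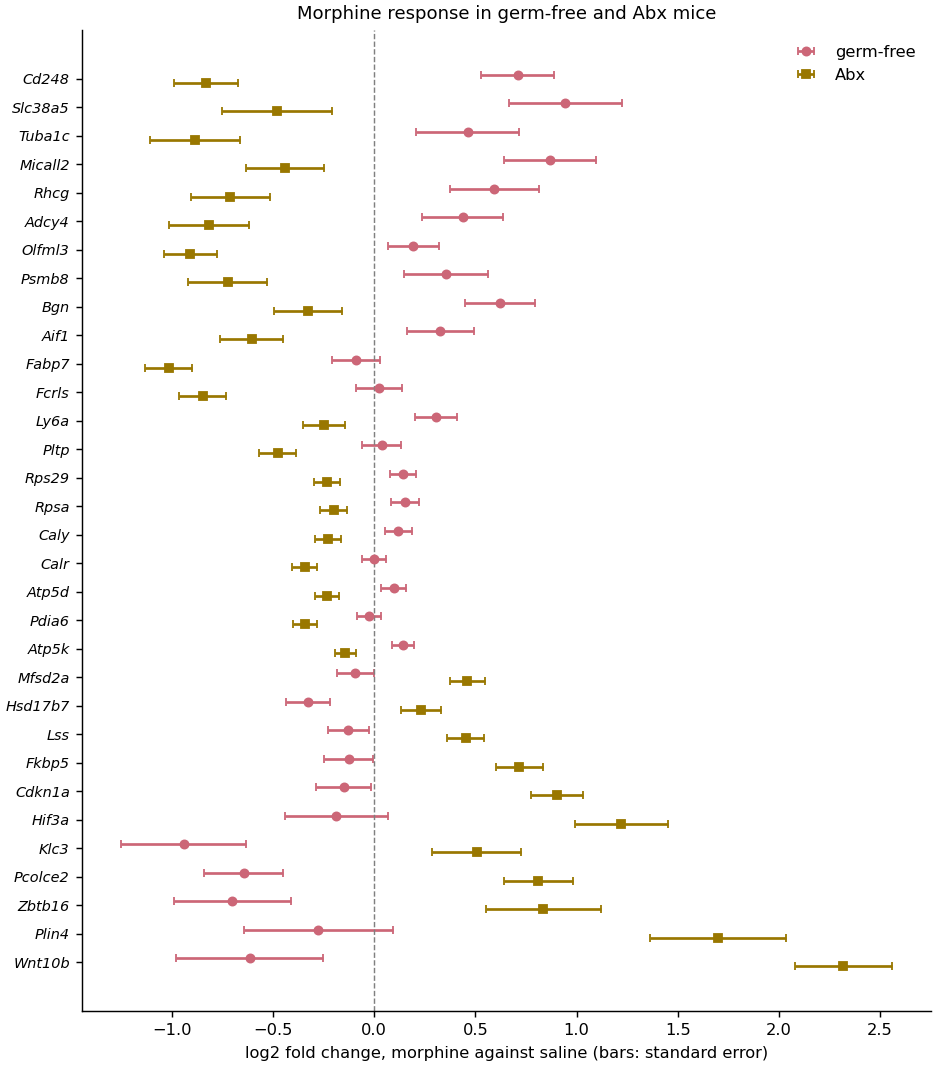
Log2 fold change of morphine against saline, ± SE, in germ-free (circles) and Abx (squares) mice for the 32 named genes whose responses differed, ordered by the difference. The germ-free values of the glucocorticoid-induced genes Fkbp5, Cdkn1a, Hif3a and Plin4 lie between -0.28 and -0.13, and those in Abx mice between 0.72 and 1.70. Zbtb16, of the same list, lies lower in germ-free mice, at -0.70, and at 0.84 in Abx mice.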

How the data were processed

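A pair of tables of the whole series were used. One holds the read count per gene symbol that the authors deposited, as whole numbers. The other holds the authors' own normalised signal per gene and served only to restore 19 of 27 gene names that a spreadsheet had turned into dates (8 were left out). The submitters' processing notes name FastQC, STAR 2.4.0 and edgeR. Genome build, annotation, strand setting and counting program: not given in the sources used here, so no positions are given. Tally entries that name no gene, 19.3% to 35.4% of reads per library, were dropped.

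Genes were kept by filterByExpr (minimum count 10), scaled by TMM factors and tested in R 4.3.3 with edgeR 4.0.16 quasi-likelihood tests (glmQLFit, glmQLFTest), two-sided, with Benjamini-Hochberg adjustment at 0.05. The comparison was fitted on the 11 germ-free libraries alone (9 residual degrees of freedom, biological coefficient of variation 0.162), and the differences between responses on all 33 (27 residual degrees of freedom, 0.128). Intervals are 95% and use the moderated spread. List levels are mean log2 CPM with a prior count of 2. Alternatives were DESeq2 1.42.0, voom with sample quality weights (limma 3.58.1), robust estimation, factors by RLE or the upper quartile, a CPM filter or none, a replicate block, covariates for dissection or depth, a correction for length and GC content (GENCODE M21 transcripts, 99.4% of genes matched), and leaving out libraries. The code was tested on simulated data.

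The comparison, the fit and the gene lists were chosen with earlier results of these data known. The rule for named genes took those that passed or, with under 10, also the 12 higher and 12 lower genes with the smallest p whose mean reached 2 CPM in either group, without gene models, pseudogenes, ribosomal and mitochondrial genes. It added per list the members that passed (up to 4 by size) or else the one with the smallest p, and 13 fixed genes of opioid, dopamine and stress signalling. For differences between responses it took 6 of each direction by size, or the 5 with the smallest p. Other members at unadjusted p under 0.05, such as Col3a1, Nr4a2, Ctgf, Tbr1 and Bgn, were named after their values were seen. Libraries of a group correlated at r 0.957 to 0.988 in log2 CPM across genes, and none was a repeat of another (chi-squared per degree of freedom 3.97 or more). Some genes that the rule or the threshold picked are not reported here, though they count in the totals.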

Additional observations from a re-analysis of the deposited data

Results flagged for a closer look

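In groups of 5 or 6 libraries, 154 sets of values were examined for a library whose gap to its nearest neighbour, as a share of the range, exceeded Dixon's 95% critical value, and 17 held one. Chance gives about 1 in 20 for sets chosen without regard to their values, but these include marker genes chosen with earlier results of these data known, so the number is a description. Saline replicate 1 stood apart in depth (15.3 megareads), Slc17a7 (304 CPM), Cck (39.0 CPM) and Bdnf (7.80 CPM). Saline replicate 4 stood apart in Gh (54.9 CPM), Prl (9.90 CPM) and Il18 (20.8 CPM). Saline replicate 5 stood apart in Oxt (27.4 CPM), Avp (7.21 CPM), Ttr (2.00 CPM) and Pnoc (22.4 CPM), and saline replicate 3 in Tbc1d4 (38.9 CPM). Of the morphine libraries, replicate 1 stood apart in Pdyn (496 CPM) and Ccdc153 (4.07 CPM), replicate 3 in Oxt (1.85 CPM), and replicate 5 in Gpt2 (74.7 CPM, the lowest) and Ifit3 (27.4 CPM).

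The morphine response of germ-free mice differed from that of Abx mice, by the interaction test with edgeR, in the following named genes (log2 difference, germ-free minus Abx). More positive were Cd248 (1.54), Slc38a5 (1.42), Tuba1c (1.35), Micall2 (1.31), Rhcg (1.31), Adcy4 (1.25), Olfml3 (1.10), Psmb8 (1.08), Bgn (0.95), Aif1 (0.93), Fabp7 (0.92), Fcrls (0.87), Ly6a (0.55), Pltp (0.51), Rps29 (0.38), Rpsa (0.35), Caly (0.35), Calr (0.34), Atp5d (0.33), Pdia6 (0.31) and Atp5k (0.29). More negative were Wnt10b (-2.94), Plin4 (-1.98), Zbtb16 (-1.54), Pcolce2 (-1.46), Klc3 (-1.45), Hif3a (-1.41), Cdkn1a (-1.05), Fkbp5 (-0.84), Lss (-0.58), Hsd17b7 (-0.56) and Mfsd2a (-0.55).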

How the results depend on the processing

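The count of genes called between morphine and saline in germ-free mice was 0 in every alternative except the fit of all 33 libraries (1 gene). The replicate block gave 0 as well; same-numbered libraries deviated together at r -0.20 to 0.54 over 5 pairs, and 1 of 5 correlated best with its own number, so the numbers were not taken as pairs. Of 70 named genes, 59 kept their sign in every setting that tested them (Bdnf and Ccdc153 were tested in 20 of 25 settings, the others in all). The others, all far from the threshold, turned as follows. With voom, Oprm1 was 0.093, Pnoc 0.43 and Gh 0.66. With the block, Drd1a was 0.032 and Gh 0.60. With dissection covariates, Cck was 0.055, Oprm1 0.029, Pnoc 0.0072, Drd1a 0.013, Drd2 0.060, Fos 0.26, Fkbp5 0.043 and Gh 0.19. With a depth covariate, Oprm1 was 0.053, Oprl1 -0.034, Drd1a 0.13 and Drd2 0.14. With length and GC content, Ppp1r1b was -0.065. Without saline replicate 1 and morphine replicate 5, Oprm1 was 0.20, Oprl1 -0.057, Drd2 0.060 and Fkbp5 0.026. Without saline replicates 1 and 4, Oprm1 was 0.051, Oprl1 -0.079, Drd1a 0.16, Drd2 0.19, Fos 0.15, Fkbp5 0.036 and Gh 0.41. Leaving out 1 library each, Oprm1 ran from -0.21 to 0.13, Pnoc from -0.23 to 0.55, Ppp1r1b from -0.11 to 0.16, Gh from -1.18 to 0.80, Pdyn from -0.027 to 0.28 and Fos from -0.38 to 0.030. The 2 settings that leave out a pair of libraries were chosen after seeing the data.

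For germ-free minus H2O the count was 0 with the block, 234 with DESeq2, 42 with voom, 278 with dissection covariates, and 0 to 94 leaving out 1 library (61, 44 and 94 without saline replicates 1, 2 and 5, and 90, 22 and 5 without morphine replicates 2, 3 and 5, all germ-free). For germ-free minus Abx the 313 became 636 with DESeq2, 624 with voom, 175 without a filter, 208 with the replicate block, 770 with dissection covariates, 191 with length and GC content and 43 in the fit of 4 groups. Leaving out 1 library gave 75 (Abx morphine 1) to 808 (germ-free saline 5), with 110, 171 and 199 without Abx saline 1, 2 and 3, 106 and 167 without Abx morphine 3 and 4, 159 and 147 without germ-free saline 3 and 6, and 148 without germ-free morphine 5. Upper-quartile factors gave 258 more positive and 122 more negative against 182 and 131. The fits of 4 groups, the dissection covariates and the length and GC content correction of both differences, and leaving out single H2O or Abx libraries, were added after seeing the data. The causes were not tested. Depth limits genes of low count. Wnt10b, Cenpf, Micall2, Tuba1c, Rhcg, Klc3, Bdnf, Ccdc153 and Alas2 were among those that averaged under 3 CPM in both germ-free groups.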
